A study of Mus musculus with 6 samples.

Results

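The genes described here are the nuclear-encoded genes of oxidative phosphorylation in mouse liver, chosen by name alone: gene names on the array that begin with Nduf and a, b, c, s or v, with Uqcr, with Cox and 4 to 8, or with Atp5, together with Sdha to Sdhd. The rule found 92 genes among 27376 on the array, read by 134 of 41174 probes. They comprise 36 subunits of complex I, 4 of complex II, 8 of complex III, 18 of complex IV and 15 of complex V, and 11 matches that are not subunits, chiefly assembly factors of complex I. Ndufa4, first assigned to complex I, was counted in complex IV, where it is now placed. Where several probes read a gene, the one that was brightest on average over the 6 arrays stands for it.

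Gene expression was measured in whole liver of 6 male BALB/c mice, which were 6 weeks old at the start. The 3 mice of the MC-LR group drank water with 100 µg/L microcystin-LR, a cyanobacterial toxin that hepatocytes take up and that inhibits serine and threonine protein phosphatases, for 12 months. The 3 control mice drank sterile water for the same time. RNA of every liver was run on a separate single-colour Agilent array, and per the labels no mouse gave more than 1 liver sample. In bulk liver, fewer cells of a type and less RNA per cell cannot be told apart.

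Oxidative phosphorylation couples the oxidation of NADH and succinate in mitochondria to the synthesis of ATP. Complexes I and II pass electrons to ubiquinone, complex III passes them to cytochrome c, and complex IV passes them to oxygen, while complex V, the ATP synthase, uses the proton gradient that complexes I, III and IV build. Most subunits are encoded in the nucleus and are assembled with a few encoded in mitochondrial DNA, and hepatocytes, which are rich in mitochondria, use the pathway to power gluconeogenesis and urea synthesis.

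Signal was well above background for 64.2% to 73.1% of probes per array, with 0 saturated probes. Slide 1 carried controls 1 and 2, and slide 2 carried control 3 with all 3 MC-LR arrays. Only slide 2 held both groups, so each difference was also computed with slide as a block, which equals the MC-LR mean minus control 3. When control 3 is left out, the controls are all on slide 1 and the MC-LR arrays all on slide 2. In that setting group and slide cannot be told apart. A principal component analysis over the genes tested placed control 3 apart from controls 1 and 2. All 7 measured hepatocyte markers, Alb and Apob among them, were well above background on all 6 arrays. The number of arrays limits the precision.

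Of the 92 genes, 89 were well above background on all 6 arrays, and the other 3, the tissue-restricted isoforms Cox4i2, Cox7b2 and Cox8c, were well above background on 0 of 6. The 89 genes were slightly higher on the MC-LR arrays as a group, and no single gene passed the test. Their median difference was 0.067 on the log2 scale, against -0.01 over all 18914 genes tested, and 61 of the 89 (68.5%) lay above 0, against 48.5% of all genes. The gene differences ran from -0.26 to 0.53. At an adjusted p under 0.05 (limma, Benjamini-Hochberg over all genes) 0 of the 89 were called in either direction, where the test called 0.0159% of all genes higher and 0% lower. At an unadjusted p under 0.05, 7 of the 89 were higher (7.87%) and 0 were lower, against 7.46% and 5.40% of all genes, so the share of higher calls was near the background. Uqcrb, Ndufaf4, Ndufaf6, Ndufs3, Atp5sl and Cox6b1 were among these 7. The 3 MC-LR arrays lay above all 3 control arrays for 26 of the 89 (29.2%), against 11.2% of all genes, and below them for 4 (4.49%), against 9.20%.

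The size of the group difference depended on which arrays entered, while the median stayed above 0 under each setting run. With slide as a block, 71 of the 89 lay above 0 and the median was 0.12, against 0.021 over all genes, of which 52.8% lay above 0. In that fit 4 of the 89 had an unadjusted p under 0.05 in the higher direction and 0 in the lower, against 7.91% and 8.14% of all genes, and 0 passed the adjusted threshold, which 0.0793% of all genes passed. Without control 3, which was the lowest of the 3 controls for 57 of the 89 genes, 50 lay above 0 and the median was 0.025. Without MC-LR 1, 53 lay above 0 and the median was 0.033. MC-LR 2 was the lowest of the 3 MC-LR arrays for 70 of the 89 genes. The median deviation of the 89 genes from their control means was 0.12 on MC-LR 1, 0.0070 on MC-LR 2 and 0.077 on MC-LR 3, and 0.021, 0.034 and -0.043 on controls 1, 2 and 3. By this median MC-LR 2 lay within the range of the controls, and the other two MC-LR arrays lay above it.

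**Figure D1:**
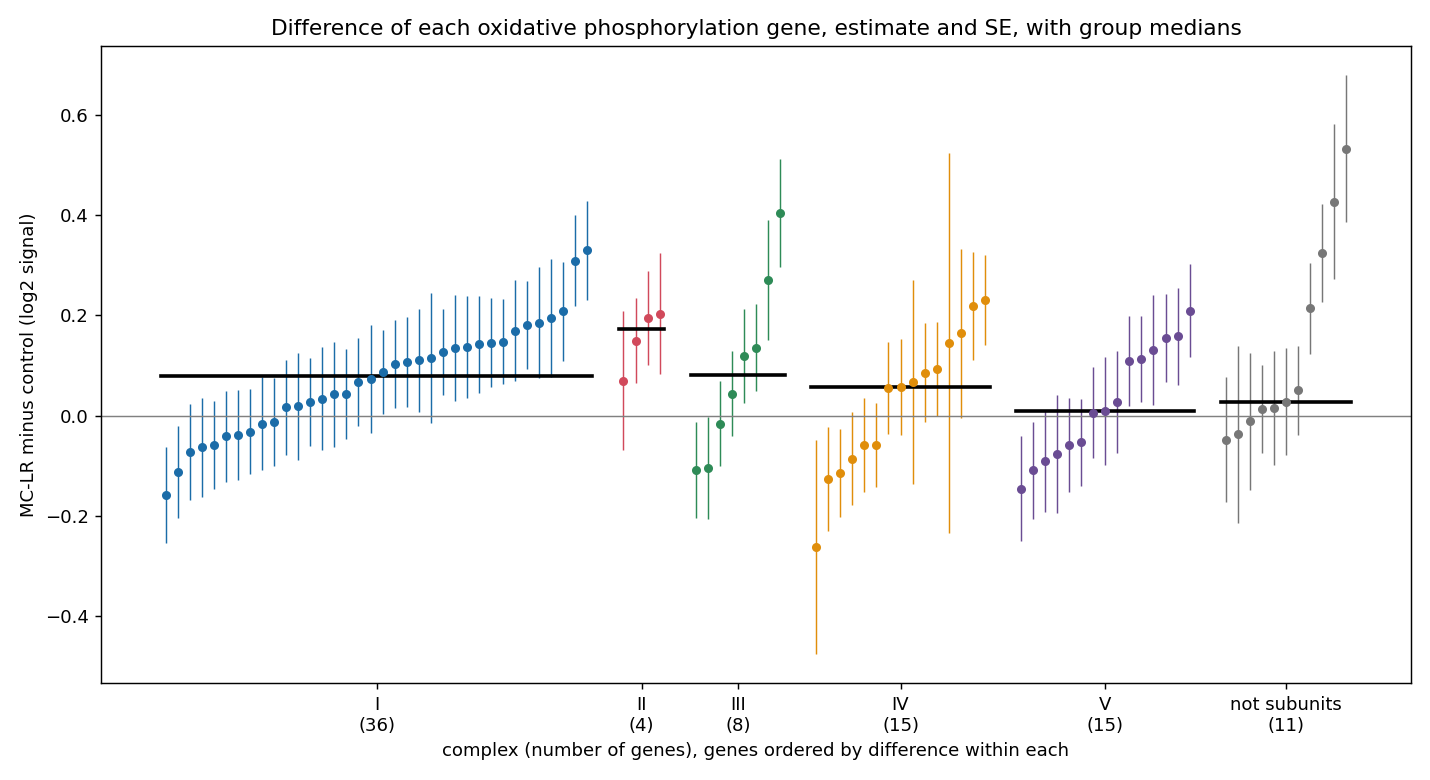
MC-LR minus control on the log2 scale (vertical axis) for each of the 89 genes, ordered within complexes I to V and the 11 matches that are not subunits (horizontal axis), with points for the estimates, thin bars for the standard errors from limma (3 arrays per group) and thick black bars for the group medians. All 4 genes of complex II lie above 0, and the medians run from 0.010 in complex V to 0.17 in complex II.

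The scaling of the arrays also moved the split. With 75th percentile scaling in place of quantile normalization, 78 of the 89 (87.6%) lay above 0, with a median of 0.14 against -0.01 over all genes, and with median scaling 85 (95.5%) did, with a median of 0.18 against 0.026. Most of these genes give bright probes, and the difference was smaller for brighter probes. Among the 29 genes whose probe averaged under 14 on the log2 scale, 25 lay above 0 with a median of 0.14, against -0.01 for the 17961 genes in that range. Of the 21 genes from 14 to 15, 16 lay above 0, with a median of 0.11 against -0.02 for all 433 genes there. Of the 39 genes over 15, 20 lay above 0, with a median of 0.0056 against -0.019 for all 520. With 75th percentile scaling all 520 bright genes had a median of 0.083 and the 39 genes of oxidative phosphorylation among them 0.088, so at that brightness they differed from the rest by little under either scaling. For the 29 dimmer genes the median under 75th percentile scaling was 0.16, against -0.02 for all genes in the range. Under that scaling the median of all genes rose with brightness, to 0.064 from 14 to 15. The range under 14 is wide, and the genes were not matched for brightness within it. The part of brightness in that gap was not tested.

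**Figure D2:**
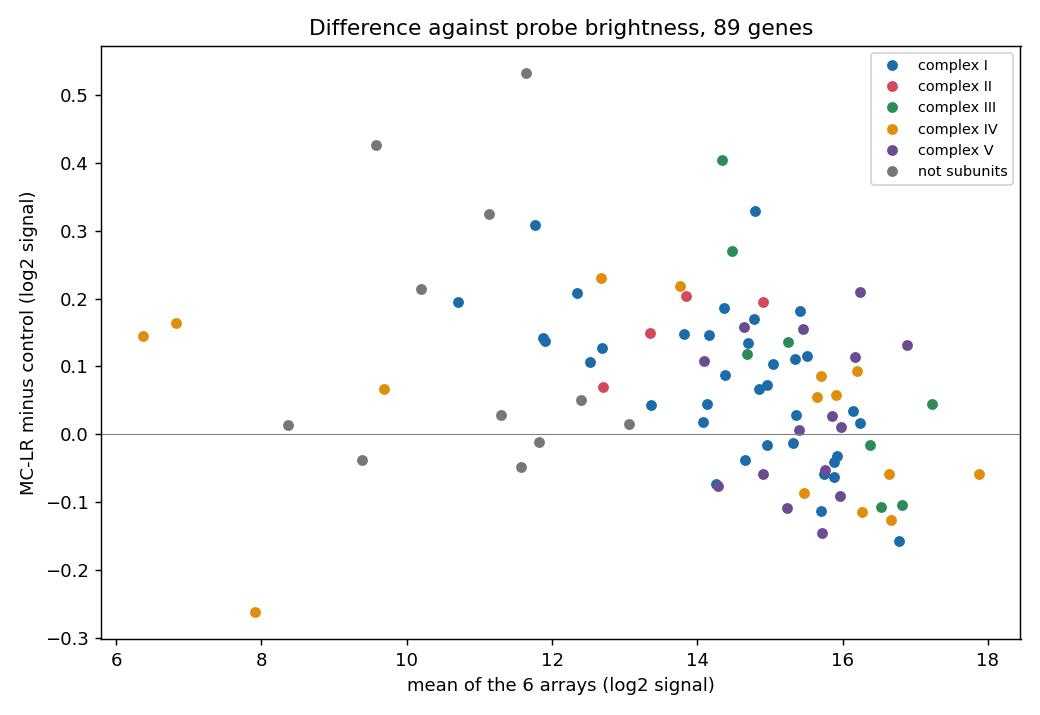
MC-LR minus control on the log2 scale (vertical axis) against the mean log2 signal of the probe over the 6 arrays (horizontal axis) for the 89 genes, coloured by complex. Genes under 14 lie mostly above 0 (25 of 29), and genes over 15 lie on both sides (20 of 39 above 0).

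The spread between mice was small for these genes. The median pooled standard deviation within groups was 0.074 on the log2 scale, against 0.20 over all genes. It was 0.12 over the 2671 genes whose probe averaged 12 or more. That range does not match the brightness of these genes, since 39 of the 89 averaged over 15, against 520 of all genes. The part of brightness in the small spread was not tested. The 95% interval of the difference had a median half-width of 0.23. For 78 of the 89 genes the interval excluded a change of 0.5 on the log2 scale (1.41-fold) in either direction. For 88 it excluded a change of 1, Cox8b being the exception. These intervals hold for the brightest probe of each gene in the fit without slide. Other probes of a gene can differ more, as the dimmest probe of Ndufa12 did, at 0.59. The smallest adjusted p of any of these genes was 0.270 (limma), that of Uqcrb, which ranged from 0.119 to 0.680 over the 18 settings tried. No other gene of the 89 went below 0.119 in any of them.

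The promoters of the genes were searched for letters that known regulators of respiratory genes bind. RefSeq promoters (GRCm38.p6), 250 bases before to 50 after the start of the gene, were matched for 76 of the 92 genes. The letters of the NRF1 motif, GCGC, AT and GCGC joined without a gap, which read the same on both strands, were found in 7 of them (9.21%) and in 1.47% of 17492 protein-coding genes. The GABP motif, CCGGAAG on either strand, was in 17 (22.4%, against 12.9%). The YY1 motif, AAGATGGCG, was in 8 (10.5%, against 2.14%), and the estrogen-related receptor (ERR) motif, TNAAGGTCA, in 3 (3.95%, against 1.19%). Among the 75 with a promoter and a tested probe, the 7 genes with the NRF1 letters had a median difference of 0.14 and the 68 without them 0.053, while the 17 with the GABP letters had -0.01 and the 58 without them 0.069. The 8 genes with the YY1 letters stood at 0.073 and the 67 without them at 0.055, and the 3 with the ERR letters at 0.19 and the 72 without them at 0.053. A match is a description of the letters and shows no binding. Below, the 120 bases before the start are printed, 5′ to 3′ on the strand of the gene, for the named genes whose match falls within them, with the match in capitals.

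Complex I is the NADH dehydrogenase, an L-shaped enzyme with a matrix arm that holds the flavin and the iron-sulfur clusters and a membrane arm that pumps protons. Of its 36 genes 26 lay above 0, with a median of 0.080 (0.13 with slide as a block, 0.039 without control 3). Arrays of the groups did not overlap for 10 of the 36 with MC-LR higher and for 2 with MC-LR lower, where 11.2% and 9.20% of all genes did so. The 7 core subunits encoded in the nucleus, which all sit in the matrix arm and hold the flavin and the clusters or shape the ubiquinone pocket, all lay above 0, from 0.13 to 0.33 with a median of 0.19. With slide as a block their median was 0.22, and without control 3 it was 0.19. The 29 accessory subunits, which surround the core, had a median of 0.043 (19 above 0), 0.088 with slide as a block and 0.010 without control 3. The core subunits included 3 with probes under 14 and 4 from 14 to 15, and the 9 accessory subunits from 14 to 15 had a median of 0.044 against 0.18 for those 4 core subunits. The 6 accessory subunits with probes under 14 all lay above 0, with a median of 0.13 against 0.21 for the 3 core subunits in that range. The difference between core and accessory subunits was not tested.

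Ndufs3, a core subunit of the ubiquinone module, stood at 14.64, 14.51 and 14.74 on controls 1, 2 and 3 and at 14.98, 14.92 and 14.97 on MC-LR 1, 2 and 3 (log2 signal; probe at chr2:90734839-90734898, mm9). The groups did not overlap, and the controls spread more widely (SD 0.11) than the MC-LR arrays (SD 0.030). Ndufs3 was 0.33 ± 0.099 higher (SE, n = 3 per group; adjusted p = 0.303, limma), and 0.22 with slide as a block, since control 3 was the highest control. Its promoter holds the GABP letters 27 bases before the start (chr2:90904722-90904841, minus strand, GRCm38.p6):
Ndufs3: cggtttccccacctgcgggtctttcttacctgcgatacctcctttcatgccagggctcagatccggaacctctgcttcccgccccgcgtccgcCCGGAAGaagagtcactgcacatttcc

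Ndufv2, a core subunit with an iron-sulfur cluster beside the flavin, stood at 12.20, 12.28 and 12.24 on the controls and at 12.46, 12.33 and 12.56 with MC-LR, without overlap, and differed by 0.21 ± 0.099 (adjusted p = 0.441, limma; 0.20 with slide as a block). The following values of complex I genes were picked after they were seen, to fill in the complex. Ndufv1, the core flavoprotein that binds NADH, and Ndufs1, the core subunit with the chain of iron-sulfur clusters, differed by 0.13 and 0.19 with groups that overlapped. Ndufs7, which holds the cluster nearest to ubiquinone, differed by 0.17 without overlap, and Ndufs8, which holds clusters before it, by 0.14 with overlap. Among accessory subunits of the matrix arm Ndufa5 was 0.18 higher and Ndufs4, whose loss causes a Leigh-like disease in mice, was 0.15 higher, each without overlap. At the other end, Ndufa13 (also known as GRIM-19), an accessory subunit of the membrane arm, was at 16.92, 16.91 and 16.75 on the controls and 16.75, 16.65 and 16.71 with MC-LR, a difference of -0.16 (adjusted p = 0.529, limma). Ndufa7, an accessory subunit of the matrix arm, differed by -0.11, and for both genes the MC-LR arrays lay below the lowest control. With slide as a block they differed by -0.05 and -0.07. The 19 genes of the membrane arm had a median of 0.028 and the 16 of the matrix arm 0.14, with slide as a block 0.076 and 0.17. The 10 Ndufb subunits of the membrane arm had a median of 0.031 and lay between -0.07 and 0.19.

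Complex II, succinate dehydrogenase, belongs to both the respiratory chain and the citric acid cycle and is the only complex with all subunits encoded in the nucleus. All 4 of its genes lay above 0, with a median of 0.17, 0.28 with slide as a block and 0.15 without control 3. Sdhd, a membrane anchor, stood at 14.81, 14.85 and 14.75 on the controls and at 15.06, 14.90 and 15.04 with MC-LR, without overlap. It was 0.19 ± 0.094 higher (SE, n = 3; adjusted p = 0.444, limma), with the GABP letters 46 bases before its start (chr9:50603850-50603969, minus strand, GRCm38.p6):
Sdhd: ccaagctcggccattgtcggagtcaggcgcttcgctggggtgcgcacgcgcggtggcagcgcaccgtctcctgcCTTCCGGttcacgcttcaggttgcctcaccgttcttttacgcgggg

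Sdhc, the other membrane anchor, read 13.29, 13.28 and 13.26 on the controls and 13.41, 13.40 and 13.47 with MC-LR. The groups were apart by more than the spread within either, and the difference was 0.15 ± 0.085 (adjusted p = 0.502, limma). Sdhb, the iron-sulfur subunit, was 0.20 higher (adjusted p = 0.520), with MC-LR 2 at 13.75 below controls 1 and 2 at 13.81 and 13.78. Sdha, the flavoprotein that oxidises succinate, is given to complete the complex. Its brightest probe differed by 0.070 and by 0.31 with slide as a block, because control 3 at 12.43 lay well under controls 1 and 2 at 12.83 and 12.75. The other 2 probes of Sdha differed by 0.22 and 0.30, each at an unadjusted p under 0.05, and adjusted p of 0.383 and 0.315 (limma, over probes).

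Complex III, the cytochrome bc1 complex, had 8 genes, 5 of them above 0, with a median of 0.081 (0.11 with slide as a block). Uqcrb, a small subunit of the ubiquinone-binding region, stood at 14.05, 14.11 and 14.25 on the controls and at 14.62, 14.42 and 14.58 with MC-LR (chr13:67001666-67001725, mm9). The MC-LR arrays lay above the controls, with control 3 the nearest to them. The difference of 0.40 ± 0.107 (SE, n = 3 per group), or 1.32-fold, had an adjusted p of 0.270 (limma), and it was 0.29 with slide as a block. The core proteins Uqcrc1 and Uqcrc2, which are related to mitochondrial processing peptidases, were 0.27 and 0.14 higher (adjusted p = 0.412 and 0.548, limma). Uqcrc1 overlapped, since control 3 at 14.48 exceeded MC-LR 2 at 14.46, and its value with slide as a block was 0.13. A second probe of Uqcrc1 differed by 0.29 without overlap (adjusted p = 0.310 over probes). The 5 genes of the complex with probes over 15, small accessory subunits and Uqcrc2 among them, had a median of -0.02, and the 3 from 14 to 15 had 0.27, or 0.13 with slide as a block.

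**Figure D3:**
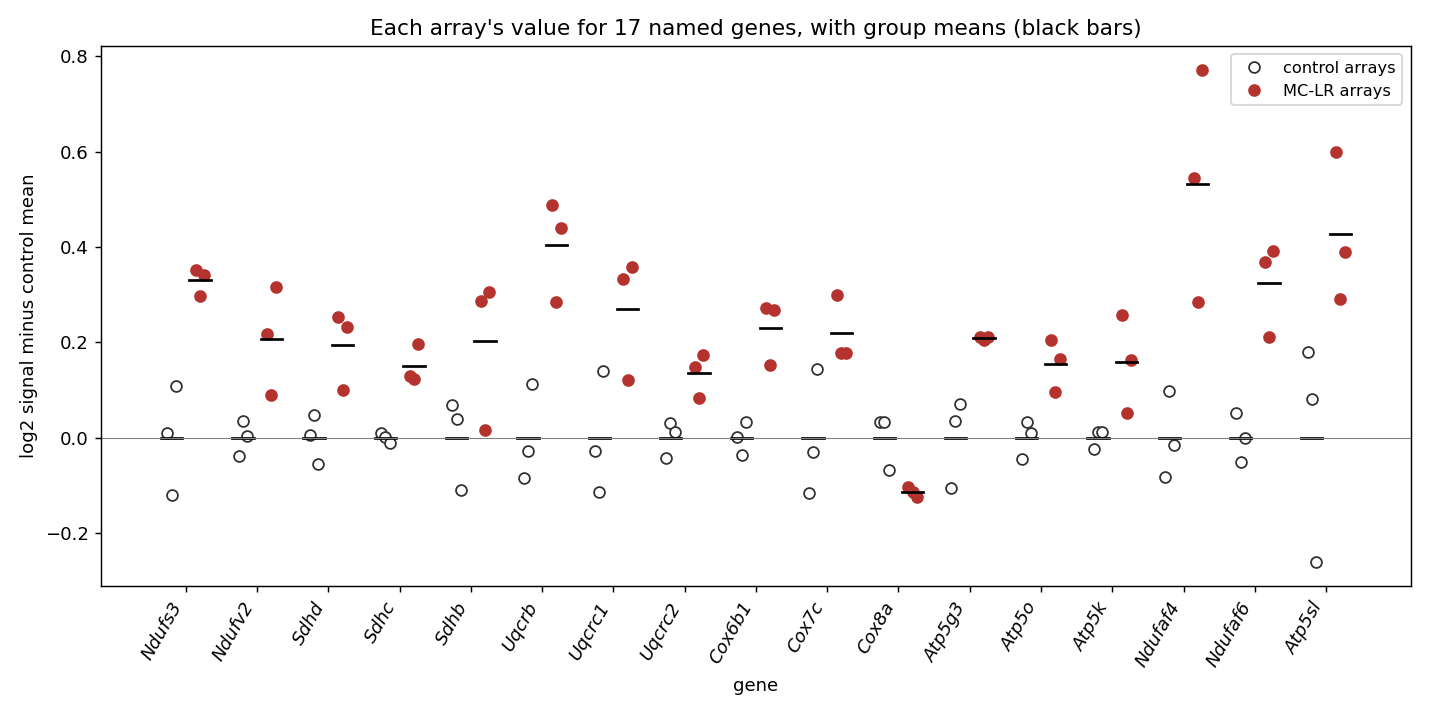
Log2 signal minus the control mean (vertical axis) for each control array (open circles) and each MC-LR array (filled circles) of 17 genes (horizontal axis), with black bars for the mean of each group. Uqcrb and Ndufs3 have all MC-LR arrays above all controls, Sdhb, Uqcrc1 and others show one low MC-LR array, and Cox8a lies below its controls.

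Complex IV, cytochrome c oxidase, has subunits that exist as tissue-specific isoforms. Of 15 tested genes 9 lay above 0, with a median of 0.058 (0.068 with slide as a block), which became -0.05 without control 3. The 11 ubiquitous and liver-type subunits had a median of 0.055, with 6 above 0. Cox6b1, which faces the intermembrane space where cytochrome c docks, stood at 12.56, 12.52 and 12.59 on the controls and at 12.83, 12.71 and 12.82 with MC-LR (chr7:31409575-31411071, mm9). The groups did not overlap. Cox6b1 was 0.23 ± 0.090 higher (adjusted p = 0.371, limma; 0.20 with slide as a block). The GABP letters lie 28 bases before its start on the opposite strand (chr7:30626115-30626234, minus strand, GRCm38.p6):
Cox6b1: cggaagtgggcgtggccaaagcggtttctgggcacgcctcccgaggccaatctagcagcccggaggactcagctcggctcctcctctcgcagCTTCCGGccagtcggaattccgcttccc

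Cox7c was 0.22 ± 0.11 higher (adjusted p = 0.452, limma), but 0.074 with slide as a block, since control 3 at 13.80 lay close under the MC-LR arrays at 13.96, 13.83 and 13.83. Cox8a, the liver-type isoform of subunit 8, stood at 16.36, 16.36 and 16.26 on the controls and at 16.22, 16.22 and 16.20 with MC-LR. The difference was -0.11 without overlap (adjusted p = 0.610, limma; -0.05 with slide as a block), and under median scaling the difference was 0.0037. Cox6a1, the liver-type isoform of subunit 6A, completes the 4 genes with MC-LR below all controls, at -0.06, and is named after its values were seen. The 9 genes of complex IV with probes over 15 had a median of -0.06, with 4 above 0. Cox6a1 holds the GABP letters on the opposite strand 16 bases before its start (chr5:115348959-115349078, minus strand, GRCm38.p6):
Cox6a1: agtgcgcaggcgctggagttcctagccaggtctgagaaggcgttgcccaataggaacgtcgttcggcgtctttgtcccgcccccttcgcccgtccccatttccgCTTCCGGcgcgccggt

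Of the 7 tissue-restricted isoforms of complex IV on the array, 4 were well above background on all 6 arrays: Cox6a2, Cox7a1 and Cox8b, the heart and skeletal muscle forms, and Cox6b2, the testis form. In the fit without slide, none of these 4 differed by more than its spread. Cox7a1 stood at 9.97, 9.73 and 9.23 on the controls and at 9.85, 9.68 and 9.61 with MC-LR, a difference of 0.067. With slide as a block Cox7a1 differed by 0.48, more than the SD of the controls (0.38) or of the MC-LR arrays (0.13). Cox8b stood at 6.56, 6.42 and 5.92 and at 6.76, 5.63 and 6.95, and differed by 0.14 ± 0.38 (0.53 with slide as a block). Cox6a2 differed by 0.16 ± 0.17 and Cox6b2 by -0.26 ± 0.21, with -0.0038 and 0.18 under the block. Control 3 minus the mean of controls 1 and 2 was -0.57 for Cox8b, -0.62 for Cox7a1 and -0.67 for Cox6b2. The block value is the MC-LR mean minus control 3, so a low control 3 raises that value by construction. Of the muscle markers, Ckm was well above background on 0 of 6 arrays and Myh4 on 1 of 6. Mylpf and Atp2a1 were well above background on all 6, and Acta1 and Tnnt3 on 2 control and 3 MC-LR arrays. Of the brown fat markers, Ucp1 was well above background on 0 of 6, and Cidea and Elovl3 on all 6.

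Complex V, the ATP synthase, has a catalytic F1 head and a proton-driven Fo rotor joined by stalks. Its 15 genes had a median of 0.010 with 9 above 0, the lowest median of the 5 complexes on all arrays. With slide as a block the median was 0.10 and without control 3 it was -0.01, and in both settings that of complex IV was lower, at 0.068 and -0.05. The complexes differ in brightness: 11 of the 15 genes of complex V had probes over 15, against 0 of complex II. Among genes over 15 the median was 0.010 in complex V, 0.0018 in complex I, -0.016 in complex III and -0.058 in complex IV. The part of brightness in the order of the complexes was not tested. The 5 F1 genes had a median of 0.11 with 4 above 0, and the 10 Fo and stalk genes one of -0.02 with 5 above 0. Arrays did not overlap for 5 of the 15, all with MC-LR higher, against 11.2% of all genes in that direction and 9.20% in the other. Atp5g3, which encodes the c-ring subunit together with Atp5g1 and Atp5g2, stood at 16.03, 16.17 and 16.20 on the controls and at 16.34, 16.34 and 16.34 with MC-LR. It was 0.21 ± 0.093 higher (adjusted p = 0.415, limma; 0.14 with slide as a block). Atp5g1 and Atp5g2, given for comparison because they encode the same mature protein, differed by -0.08 and -0.11 with overlapping groups. A dimmer probe of Atp5g2 differed by 0.041, in the opposite direction. Atp5o, the OSCP subunit that joins the stalk to F1, was 0.16 higher without overlap, and so was Atp5k, the e subunit, at 0.16 (adjusted p = 0.502 and 0.528, limma). Atp5g2 holds the NRF1 letters 42 bases before its start (chr15:102671048-102671167, minus strand). Atp5g3 holds the ERR letters on the opposite strand 52 bases before its start (chr2:73911327-73911446, minus strand), and Atp5k the NRF1 letters 50 bases before it (chr5:108434400-108434519, minus strand, GRCm38.p6):
Atp5g3: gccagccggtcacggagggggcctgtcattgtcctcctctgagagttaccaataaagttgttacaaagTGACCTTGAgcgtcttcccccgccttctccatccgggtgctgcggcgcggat
Atp5g2: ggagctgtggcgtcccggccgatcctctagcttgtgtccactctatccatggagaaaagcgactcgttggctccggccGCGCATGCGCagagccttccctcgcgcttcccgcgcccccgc
Atp5k: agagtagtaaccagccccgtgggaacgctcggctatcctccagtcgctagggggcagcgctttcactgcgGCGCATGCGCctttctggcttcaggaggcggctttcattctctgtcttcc

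**Figure D4:**
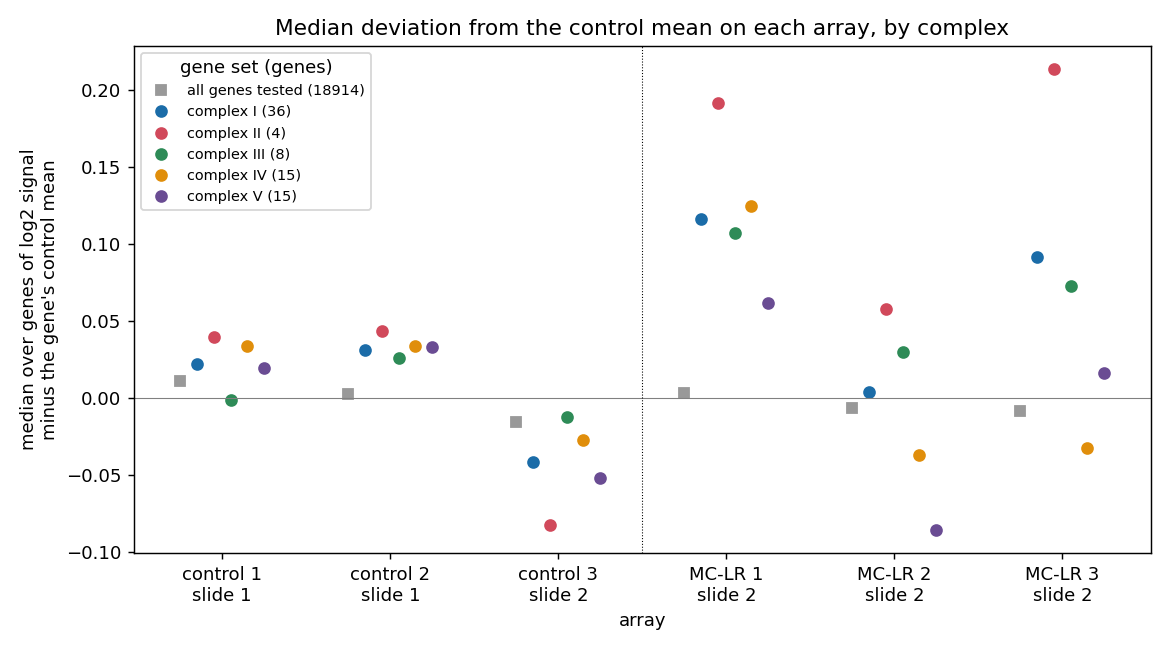
Median over the genes of each complex (coloured points) and over all 18914 genes tested (grey squares) of the log2 signal minus the control mean of the gene (vertical axis), for each of the 6 arrays with its slide (horizontal axis). Complex II lies at 0.19, 0.058 and 0.21 on the MC-LR arrays, complex V at 0.062, -0.09 and 0.017, and all genes lie between -0.02 and 0.011.

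The array medians show where the complexes differed. Complex I had medians of 0.12, 0.0041 and 0.092 on MC-LR 1, 2 and 3, and complex III had 0.11, 0.030 and 0.073. Complex IV stood at 0.13 on MC-LR 1 and at -0.04 and -0.03 on MC-LR 2 and 3, and complex V at 0.062, -0.09 and 0.017. On control 3 the medians of the 5 complexes lay between -0.08 and -0.01. The core subunits of complex I had 0.22, 0.073 and 0.31 on the MC-LR arrays and -0.02, 0.035 and 0.0034 on the controls, so the 3 MC-LR arrays lay above the 3 controls. For complexes I, IV and V the groups overlapped. In complex I, MC-LR 2 at 0.0041 lay under controls 1 and 2 at 0.023 and 0.032. For complexes II and III the MC-LR arrays lay above the controls, in complex III with MC-LR 2 at 0.030 close to control 2 at 0.026.

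Of the 11 matches that are not subunits, 8 help to assemble complex I, and these had a median of 0.12 with 6 above 0 (0.18 with slide as a block). Ndufaf4, which acts early in the assembly of complex I, had the highest difference of the 89 genes. It stood at 11.29, 11.47 and 11.36 on the controls and at 11.92, 11.66 and 12.14 with MC-LR (chr4:24829194-24829253, mm9). All MC-LR arrays were above all controls. The difference was 0.53 ± 0.15 (SE, n = 3 per group), or 1.45-fold, with an adjusted p of 0.284 (limma), and 0.55 with slide as a block. Its other 2 probes differed by 0.62 and 0.56, also without overlap. Ndufaf6 stood at 11.02, 10.91 and 10.96 and at 11.33, 11.18 and 11.36, and was 0.32 ± 0.097 higher (adjusted p = 0.302, limma; 0.33 with slide as a block). Atp5sl, now called Dmac2, an assembly factor of the distal membrane arm of complex I despite its array name, stood at 9.54, 9.44 and 9.10 and at 9.96, 9.65 and 9.75. It was 0.43 ± 0.15 higher (adjusted p = 0.354, limma) and 0.69 with slide as a block, control 3 being the lowest array. The NRF1 letters lie 113 bases before the start of Ndufaf4 (chr4:24897963-24898082, plus strand), and the YY1 letters 53 bases before that of Atp5sl (chr7:25619373-25619492, plus strand, GRCm38.p6):
Ndufaf4: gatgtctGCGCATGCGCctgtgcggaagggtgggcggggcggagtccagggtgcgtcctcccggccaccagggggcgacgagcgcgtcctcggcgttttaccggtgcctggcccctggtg
Atp5sl: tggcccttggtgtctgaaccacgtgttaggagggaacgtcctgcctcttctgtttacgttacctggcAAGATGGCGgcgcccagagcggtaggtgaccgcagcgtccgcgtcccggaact

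Ndufaf3 was 0.21 higher without overlap (adjusted p = 0.396, limma). The other assembly factors showed no such separation: Ndufaf1, Ndufaf2, Ndufaf5 and Ndufaf7 differed by -0.01, -0.05, 0.014 and 0.028, and the groups overlapped for each. Among the remaining matches Cox7a2l, a factor of respiratory supercomplexes, differed by 0.050, Atp5s (now Dmac2l) by -0.04 and the pseudogene Atp5c1-ps by 0.016. Ndufaf1 holds the GABP letters 18 bases before its start (chr2:119662835-119662954, minus strand, GRCm38.p6):
Ndufaf1: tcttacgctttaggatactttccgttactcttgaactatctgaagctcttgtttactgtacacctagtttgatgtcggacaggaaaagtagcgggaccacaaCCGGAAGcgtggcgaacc

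Several genes of the pathway outside the name rule were read for comparison, and 0 of each list passed the adjusted threshold (limma). Counts at an unadjusted p under 0.05 in these lists stand against 7.46% of all genes higher and 5.40% lower. Of 24 measured assembly factors outside the rule, 16 lay above 0 with a median of 0.080, and 4 were higher at an unadjusted p under 0.05. Cox10, which makes the heme A precursor of complex IV, stood at 4.25, 4.36 and 4.52 on the controls and at 5.37, 5.14 and 5.46 with MC-LR, 0.95 ± 0.13 higher (adjusted p = 0.156), or 0.81 with slide as a block. Ttc19, an assembly factor of complex III, was 0.34 higher, and Foxred1, of complex I, 0.26 higher. Of 10 electron carriers and partners 6 lay above 0 with a median of 0.16. Cyc1, the cytochrome c1 of complex III that the name rule misses, stood at 14.58, 14.63 and 14.67 and at 14.98, 14.90 and 15.03, 0.34 higher (adjusted p = 0.270; 0.30 with slide as a block). Cytochrome c (Cycs) was 0.26 higher and the mitochondrial phosphate carrier Slc25a3 0.27 higher. For Cyc1, Cycs and Slc25a3 the groups did not overlap.

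Of 13 citric acid cycle genes 12 lay above 0, with a median of 0.099 (10 and 0.15 with slide as a block), and 2 were higher at an unadjusted p under 0.05, against 7.46% of all genes. Ogdh, of the 2-oxoglutarate dehydrogenase complex, was 0.26 higher (unadjusted p = 0.048, limma). Idh3b, of isocitrate dehydrogenase, was 0.24 higher but is not among those 2 (unadjusted p = 0.067, limma). Of the 13 genes of mitochondrial DNA that encode subunits, 4 were on the array under their names. COX2 differed by 0.26, ND4 by 0.21, CYTB by 0.032 and the ATP6 gene by 0.010, with 0.021, 0.048, -0.13 and 0.030 under the slide block, so none stood above control 3 by more than 0.05.

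Among 12 regulators of respiratory genes 7 lay above 0, with a median of 0.045, and 3 were higher at an unadjusted p under 0.05, against 7.46% of all genes. Esrra, the estrogen-related receptor alpha, which binds many promoters of respiratory genes, stood at 11.38, 11.54 and 11.58 on the controls and at 12.25, 12.17 and 12.22 with MC-LR. The groups lay far apart relative to their spread, at 0.71 ± 0.098 (SE, n = 3 per group), or 1.64-fold, with an adjusted p of 0.156 (limma) and 0.63 with slide as a block. Its coactivator Ppargc1b was 0.86 ± 0.33 higher (adjusted p = 0.364), with MC-LR 3 at 10.08 close to control 3 at 10.01 and MC-LR 1 at 11.40. Yy1 was 0.30 higher (adjusted p = 0.340; 0.40 with slide as a block). Nrf1, Gabpa and Tfam, given for the motifs above and for mitochondrial DNA, differed by -0.15, 0.048 and -0.08, with groups that overlapped. A relation between these regulators and the subunits was not tested.

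Markers of other liver cells were read on the same arrays, and 0 of each list passed the adjusted threshold (limma). Of 5 endothelial markers 5 lay below 0, with a median of -0.44. Pecam1 and Cdh5 were lower at an unadjusted p under 0.05, against 5.40% of all genes (adjusted p = 0.214 and 0.321, limma). The median deviation of the 5 endothelial markers from the control mean ranged from -0.31 to 0.20 on the controls and from -0.57 to -0.19 with MC-LR. Of 5 macrophage markers 5 lay below 0 with a median of -0.24, from -0.26 to 0.38 on the controls and from -0.64 to -0.0081 with MC-LR. Of 3 red cell markers 3 lay below 0, with a median of -0.52, from -0.59 to 0.49 on the controls and from -0.74 to -0.33 with MC-LR. With slide as a block the medians were 0.017 for the endothelial, -0.54 for the macrophage and 0.058 for the red cell markers. Of 7 hepatocyte markers 5 lay above 0 with a median of 0.099, and Cyp2e1, a cytochrome P450 of pericentral hepatocytes, was 0.58 higher (adjusted p = 0.211, limma). Of the other lists, 1 of 4 T and B cell markers, 2 of 3 cholangiocyte markers, 1 of 3 stellate markers, 2 of 2 tested adipocyte markers, 1 of 4 tested muscle markers and 0 of 2 tested brown fat markers lay above 0. Lrat, the stellate marker above 0, was 0.95 higher without overlap (adjusted p = 0.345, limma), and 0.20 with slide as a block. The part of cell makeup in the values of the respiratory genes was not tested.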

How the data were processed

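Cy3-labelled liver RNA was scanned in 1 colour. Probe names, flags and slides came from the deposited scanner files, whose spot intensity was extracted, per the submitters' processing notes, with Agilent Feature Extraction 10.7 and is background-subtracted and detrended per the file headers. The log2 values are those of the deposited table, which the authors normalized by the quantile algorithm, per the series' design text. Its columns share a median of 5.94, follow log2 of their own array's processed signal (r of 0.998 to 1.00) and are not centred. Higher values mean more signal.

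A gene, under the name in the file, was kept if either group had its brightest probe well above background on all 3 arrays. The 18914 genes were fitted with limma 3.58.1 in R 4.3.3 (4 residual and 2.04 prior degrees of freedom, two-sided, Benjamini-Hochberg over all genes). The steps were tested on simulated data. Accessions matched RefSeq for 91 of 92 genes. Probe coordinates are those of the files (mm9), and RefSeq promoters are GRCm38.p6.

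The members and lists were chosen with earlier results of these data known. Genes were named by a rule: the 3 of each complex with the smallest p, others at an unadjusted p under 0.05 whose groups did not overlap, tissue-restricted isoforms, matches that are not subunits, and up to 3 of each other list. Sdha, Ndufs1, Ndufs4, Ndufs7, Ndufs8, Ndufv1, Ndufa5, Ndufa7, Ndufa13, Cox6a1, Atp5g1, Atp5g2, Nrf1, Gabpa, Tfam, ATP6 and the probes of the closing section were added after their values were seen. Some genes that the rule names are not reported here. Alternatives covered the scaling, background correction (normexp, offset 50), dim-probe filter, choice of probe, slide, replicate number, variance model and each array left out. The replicate numbers did not pair the samples: deviations of same-numbered arrays correlated at 0.18, -0.32 and -0.19.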

Additional observations from a re-analysis of the deposited data

How the results depend on the processing

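No gene of oxidative phosphorylation passed the adjusted threshold under any setting run. Over all genes the threshold was passed by 3 genes, by 15 with slide as a block, 5 without a filter on dim probes, 1 with 75th percentile scaling, median scaling, normexp or detection on all 6 arrays, 0 on slide 2 alone, 0 with the replicate block, and 1 to 50 when an array was left out, 50 without control 3 and 1 without MC-LR 1. Genes of oxidative phosphorylation higher at an unadjusted p under 0.05 numbered 7, against 7.46% of all genes, and 4 with slide as a block, against 7.91%. They numbered 11 with 75th percentile scaling, 14 with median scaling, 18 with normexp and 15 with trend and robust. When every probe was a feature, 18 probes were higher. The count was 5 with the replicate block and 4 among structural subunits. It was 3 to 10 when an array was left out (3 without control 2 or MC-LR 1). Lower ones numbered 0, against 5.40% of all genes, and 1 with normexp and 0 to 1 when an array was left out. The share over all genes was taken only for the main fit and the slide block. The counts under the other settings therefore cannot be set against a background.

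The median over the 89 genes, 0.067, was 0.14 with 75th percentile scaling, 0.18 with median scaling, 0.12 with slide as a block or on slide 2 alone, and 0.025 to 0.084 when an array was left out. For complex I these values were 0.15, 0.19, 0.13 and 0.039 to 0.11. For complex II median scaling gave 0.27 and the slide settings 0.28, and leaving arrays out 0.14 to 0.20. For complex III the 2 scalings gave 0.19 and 0.23, every probe as a feature 0.045, and leaving arrays out 0.052 to 0.11. For complex IV median scaling gave 0.15, and leaving arrays out -0.046 (without control 3) to 0.084, with -0.0024 without MC-LR 1. For complex V the 2 scalings gave 0.095 and 0.13, averaging the probes of each gene 0.077, every probe 0.075, the slide settings 0.10, and leaving arrays out -0.022 (without MC-LR 1) to 0.056. The cause was not tested.

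For the named genes, 725 differences under other settings kept their direction and 40 changed sign. Those that changed included Cox6b2, Cox6a2, Cox8b and Cox8a, which differed by -0.26, 0.16, 0.14 and -0.11 on all arrays. Some settings could not change a sign, since the variance model, the replicate block and the dim-probe filters leave each difference as it was. Slide as a block and slide 2 alone give the same difference but were counted separately, so these counts overstate the agreement. Under 75th percentile scaling Ndufaf1 stood at 0.040 and Ndufaf5 at -0.0054. Under median scaling Cox8a, Ndufaf1 and Ndufaf2 stood at 0.0037, 0.075 and 0.016, and with normexp Ndufaf5 at -0.0066. The mean of its probes put Atp5s at 0.0094. With slide as a block and on slide 2 alone, Atp5s, Cox6b2, Ndufaf1 and Ndufaf2 stood at 0.14, 0.18, 0.19 and 0.16, and CYTB, Cox6a2 and Ndufaf7 at -0.13, -0.0038 and -0.082. When an array was left out, Ndufaf1 ranged from -0.11 to 0.061, Ndufaf2 from -0.15 to 0.0082, Ndufaf5 from -0.014 to 0.045, Ndufaf7 from -0.028 to 0.083, Atp5s from -0.13 to 0.12, Atp5c1-ps from -0.057 to 0.079, Cox7a1 from -0.14 to 0.23, Cox8b from -0.11 to 0.55 and CYTB from -0.034 to 0.11. Across the 18 settings, which include the main fit and those that could not change a sign, 45 of the 89 genes stayed above 0 and 1 below it. The number of arrays limits the precision, and the 3 isoforms that were not well above background give no difference.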

Other observations

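Of the 92 genes, 30 had more than 1 probe, and 31 of 40 other probes that passed the filter differed in the same direction as the brightest one. The 9 opposite ones included probes of Atp5j2, the f subunit of ATP synthase, and Ndufa3, an accessory subunit of complex I, at an unadjusted p under 0.05. The brightest probe of Atp5j2 differed by -0.05, and its dimmer one stood at 6.87, 6.92 and 7.15 on the controls and at 7.38, 7.42 and 7.33 with MC-LR, a difference of 0.39. For Ndufa3 the values were -0.04 and 0.41. In the same direction, the dimmest probe of Ndufa12, an accessory subunit of the matrix arm, differed by 0.59 where the brightest differed by 0.073, that of Atp5b, the catalytic beta subunit, by 0.47 against 0.13, and that of Atp5f1, the b subunit of the peripheral stalk, by 0.42 against 0.0056. Over the 29 genes with a dimmer passing probe, the dimmest was the more positive for 21 (72.4%), against 60.8% of 6525 other genes and 65.8% of the 1221 other genes whose brightest probe averaged 12 or more. As single features, the smallest adjusted p of any of these probes was 0.245 (limma over 28506 probes).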
